A study of Mus musculus with 6 samples.

Results

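The 36 genes described here are interferon-stimulated genes, which cells switch on when interferons, secreted after a virus or foreign nucleic acid has been sensed, bind their receptors. They were taken as a list of gene names, and no measured value entered the rule. Earlier results of these data were known when the list was chosen. All 36 of them were found among the 34755 genes of the array, on 46 probes. Where a gene had several probes, the brightest on average stood for it: 26 members had 1 probe and 10 had 2.

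Type I interferons signal through receptor-bound kinases that phosphorylate STAT2. With IRF9 it is part of a transcription factor that binds the interferon-stimulated response element in promoters. The products sense RNA, degrade it, block its translation or stop virus particles from entering or leaving. Macrophages keep part of this set on at a low level without infection, and Argonaute proteins such as AGO2 carry small RNAs, most of them cut by Dicer, to their target transcripts.

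The arrays held RNA of mouse bone marrow-derived macrophages, grown for 7 days from marrow of mice aged 6 to 8 weeks and labelled male. KO cells were LysM-Cre/Dicer flox/flox/Apoe-/- and WT cells LysM-Cre/Dicer wt/wt/Apoe-/-, so that Cre, driven in myeloid cells by the lysozyme M gene, and the loss of Apoe were common to both genotypes as the labels give them. No infection and no interferon treatment is named in the labels. RNA of each genotype was hybridised after precipitation with an antibody to AGO2 (AGO2-RIP), after precipitation with control IgG (IgG-RIP) and before precipitation (input). The 6 groups, KO AGO2-RIP, WT AGO2-RIP, KO IgG-RIP, WT IgG-RIP, KO input and WT input, had 1 array each, and the labels do not say whether cells of several animals were pooled.

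Levels are log2 of the Agilent processed signal minus the array's 75th percentile, so that 0 is the brightness of that percentile, and a difference of 1 is 2-fold. A member is called measured where its probe was well above background on each array compared. With 1 array per group these differences have no replicate check, so the 2-fold line marks size alone. The spread known here is that between the 10 spots of 1 probe on an array, with an SD of 0.149 to 0.189 on the log2 scale.

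The share of the 59305 non-control spots well above background was 37.6% to 46.3%, and no spot was saturated. Dicer1 was at 0.94 in KO AGO2-RIP and 0.93 in WT AGO2-RIP, not well above background in KO IgG-RIP and at 0.18 in WT IgG-RIP, and at -0.55 in KO input and 0.22 in WT input. Whether its probe lies in the deleted exons is not known, so these values are no check of the deletion. All 7 macrophage markers were above background on the 3 KO arrays and the WT IgG-RIP array and 6 of them on the other WT arrays. The exception was Lyz2, the lysozyme M gene into which Cre was inserted, at 5.66 in KO input and dim in WT input, 3.56 in KO AGO2-RIP and dim in WT AGO2-RIP, and 4.11 in KO IgG-RIP and -1.16 in WT IgG-RIP. The summed level of the 7 markers relative to the 75th percentile was 1256 in KO input and 1364 in WT input. Ddx3y and Eif2s3y, of the Y chromosome, gave signal on 3 of 3 KO and 0 of 3 WT arrays, and Xist, of the inactive X chromosome, on 0 of 3 KO and 3 of 3 WT arrays. Sex as read from these genes therefore goes with genotype, against the labels, and so do the Lyz2 signal and the row of the slide (KO on row 1, WT on row 2). Genotype, sex, the state of the Lyz2 locus and slide row cannot be told apart in any KO against WT value that follows.

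Of the members, 23 were well above background on all 6 arrays (63.9%, against 35.6% of all genes), 9 on 1 to 5 arrays, and Ifit1, Ifi44, Oasl1 and Usp18 on none. The number above background was 29 on KO AGO2-RIP and 27 on WT AGO2-RIP (52.1% and 50.5% of all genes). It was 25 on KO IgG-RIP and 26 on WT IgG-RIP (48.1% and 48.4% of all genes). On input it was 30 in KO and 26 in WT (46.9% and 43.5% of all genes).

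**Figure D1:**
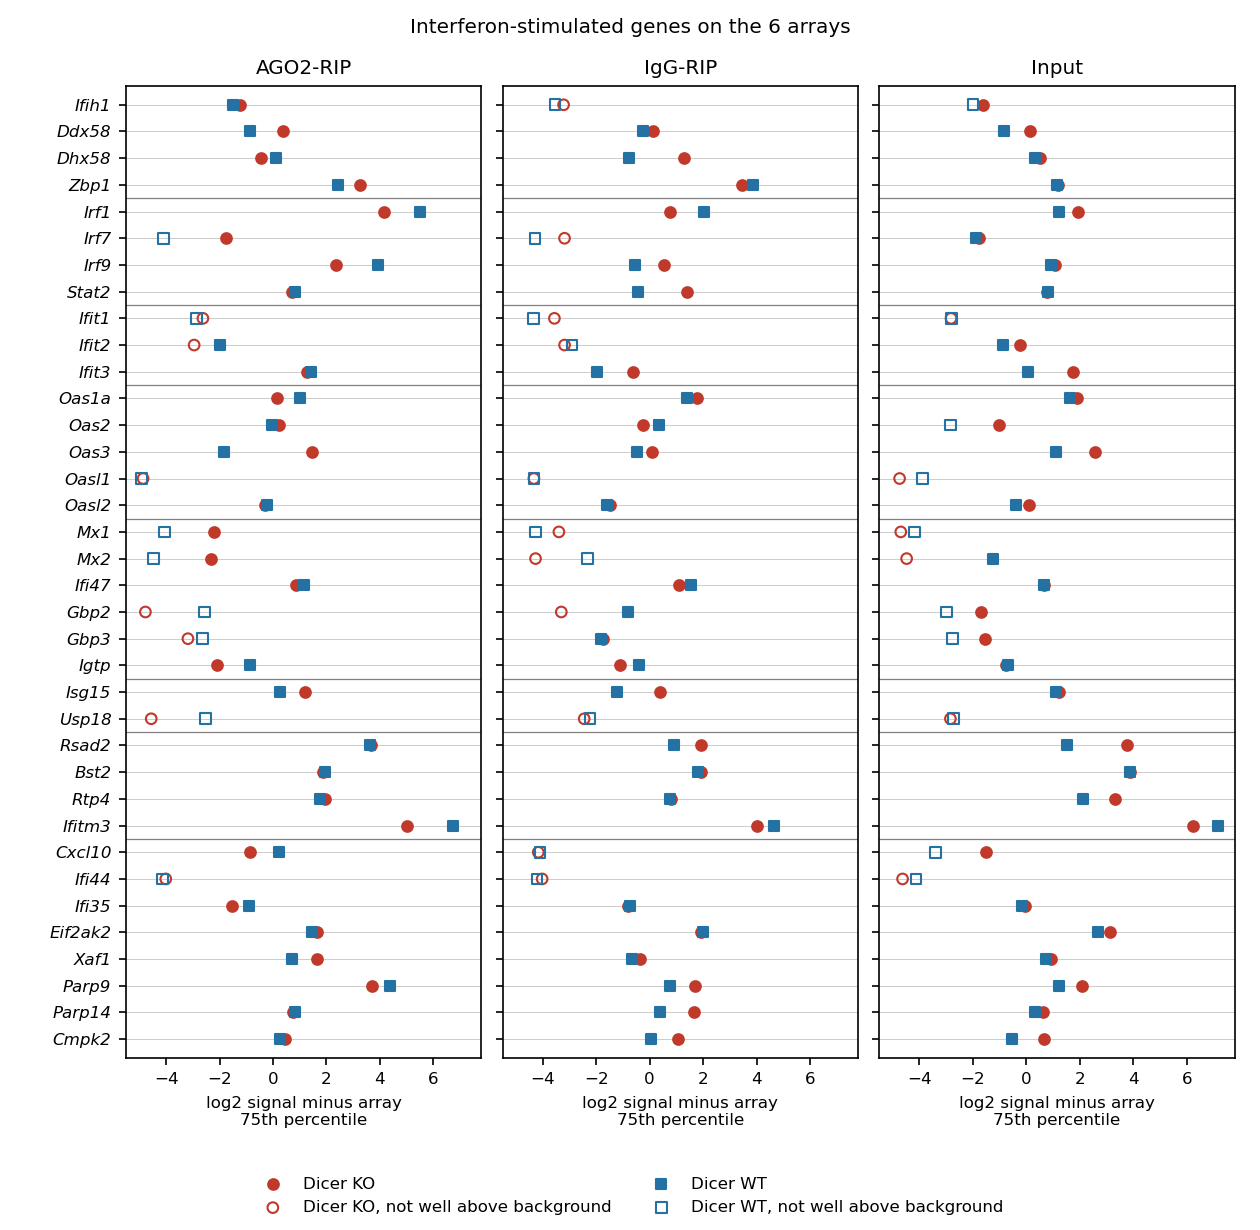
Level of each of the 36 members (rows, grouped by role) on the AGO2-RIP, IgG-RIP and input arrays (panels), as log2 signal minus the array's 75th percentile, with KO as circles and WT as squares and open symbols where the probe was not well above background. Ifit1, Ifi44, Oasl1 and Usp18 have open symbols in every panel, and KO lies to the right of WT for most members in the input panel.

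In input RNA, 5 of the 25 measured members were 2-fold or more higher in KO than in WT and 0 were as much lower. Over all measured genes 1.02% were that much higher and 1.73% that much lower. The 5 were Rsad2, Ifit3, Oas3, Rtp4 and Cmpk2. The difference was above 0 for 21 of the 25, against 6149 of 14664 measured genes. That count sets no size, and values such as Zbp1 at 0.05 lie within the spot SD of a difference, 0.22. The median difference was 0.25, against -0.08 over all measured genes. In bulk RNA, more expressing cells and more RNA per cell cannot be told apart, and with 1 array per genotype no p-value can be given.

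Rsad2 encodes viperin, an enzyme that makes a chain-terminating nucleotide from CTP. Its level was 3.75 in KO input and 1.53 in WT input, a difference of 2.23, the largest among the members. It was 3.69 in KO AGO2-RIP and 3.64 in WT AGO2-RIP, and 1.94 in KO IgG-RIP and 0.90 in WT IgG-RIP. The genotypes thus differed on the input and IgG-RIP arrays and by 0.04, less than the spot SD, on the AGO2-RIP arrays.

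Ifit3, which stabilises the RNA-binding IFIT1 protein in human cells, was at 1.74 in KO input and 0.07 in WT input. It was at 1.27 in KO AGO2-RIP and 1.41 in WT AGO2-RIP, and at -0.64 in KO IgG-RIP and -1.97 in WT IgG-RIP. The WT IgG-RIP level lay near the lowest spot well above background on that array, at -2.03. KO was 1.67 above WT in input and 1.33 above it in IgG-RIP, with a difference of -0.13 in AGO2-RIP. Ifit3b, a near-identical copy that can share its signal, differed by 1.66 in input.

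Oas3 makes oligoadenylates that activate RNase L. Its level was 2.56 in KO input and 1.11 in WT input, and 0.08 in KO IgG-RIP and -0.48 in WT IgG-RIP. The AGO2-RIP arrays differed most, with 1.47 in KO and -1.83 in WT, a KO minus WT difference of 3.31. Oas3 was higher in KO on all 3 fractions.

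Rtp4, an interferon-induced protein first known as a receptor chaperone, was at 3.30 in KO input and 2.11 in WT input. The genotypes were close after precipitation, with 1.95 in KO AGO2-RIP and 1.77 in WT AGO2-RIP, and 0.80 in KO IgG-RIP and 0.76 in WT IgG-RIP. Cmpk2, a nucleotide kinase encoded on the same chromosome as Rsad2, was 1.20 higher in KO input, a difference of 0.62 when the background was corrected by normexp.

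At the other end, Ifitm3, which blocks fusion of virus with endosomes, was lower in KO on all 3 fractions. Its level was 5.03 in KO AGO2-RIP and 6.76 in WT AGO2-RIP, 4.02 in KO IgG-RIP and 4.64 in WT IgG-RIP, and 6.25 in KO input and 7.17 in WT input. Each of these is the mean of 10 spots. Igtp, an immunity-related GTPase that acts on pathogen vacuoles, was at -0.75 in KO input and -0.70 in WT input, a difference of -0.05. It was at -2.11 in KO AGO2-RIP and -0.85 in WT AGO2-RIP, and at -1.13 in KO IgG-RIP and -0.41 in WT IgG-RIP.

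Of the transcription factors of the pathway, Irf1 differed most in input. Stat2 was at 0.78 in KO input and 0.82 in WT input, and Irf9, which directs STAT2 to DNA, was at 1.06 in KO input and 0.91 in WT input. Irf7, which drives interferon alpha genes, was at -1.76 in KO input and -1.87 in WT input. Irf1, a factor that binds related promoter elements, was at 1.94 in KO input and 1.23 in WT input, a difference of 0.72. None of the 4 was past 2-fold.

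Among the sensors, Ddx58, which encodes RIG-I, was 0.97 higher in KO input, and Dhx58, its relative LGP2, 0.19 higher. Zbp1, a sensor of Z-form nucleic acids, differed by 0.05. The RNA sensor Ifih1 (MDA5) was measured in KO input only, which bounds the difference at 1.25-fold or more. Oasl2 was 0.47 and Oas1a 0.25 higher in KO, and Oas2, dim in WT input, was at least 1.89-fold higher. Ifit2 was 0.63 higher. Of the remaining measured members, Parp9 was 0.85, Eif2ak2 (the RNA-activated kinase PKR) 0.46 and Parp14 0.32 higher in KO, but a second Parp9 probe was 0.43 lower. Xaf1, Ifi35, Isg15, Ifi47 and Bst2 (the virion tether tetherin) lay between -0.01 and 0.17 on the probe used. Second probes gave 0.66 for Isg15 and -0.19 for Xaf1.

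Mx2, a GTPase that restricts viruses, was the only member with a bound past 2-fold in input, at least 2.28-fold lower in KO. It was not well above background in KO input and at -1.25 in WT input. Gbp2, Gbp3 and the chemokine Cxcl10 were above background in KO input and dim in WT input, with bounds of at least 1.19-fold, 1.31-fold and 1.35-fold higher. Mx1 was above background on the KO AGO2-RIP array only, at -2.21.

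**Figure D2:**
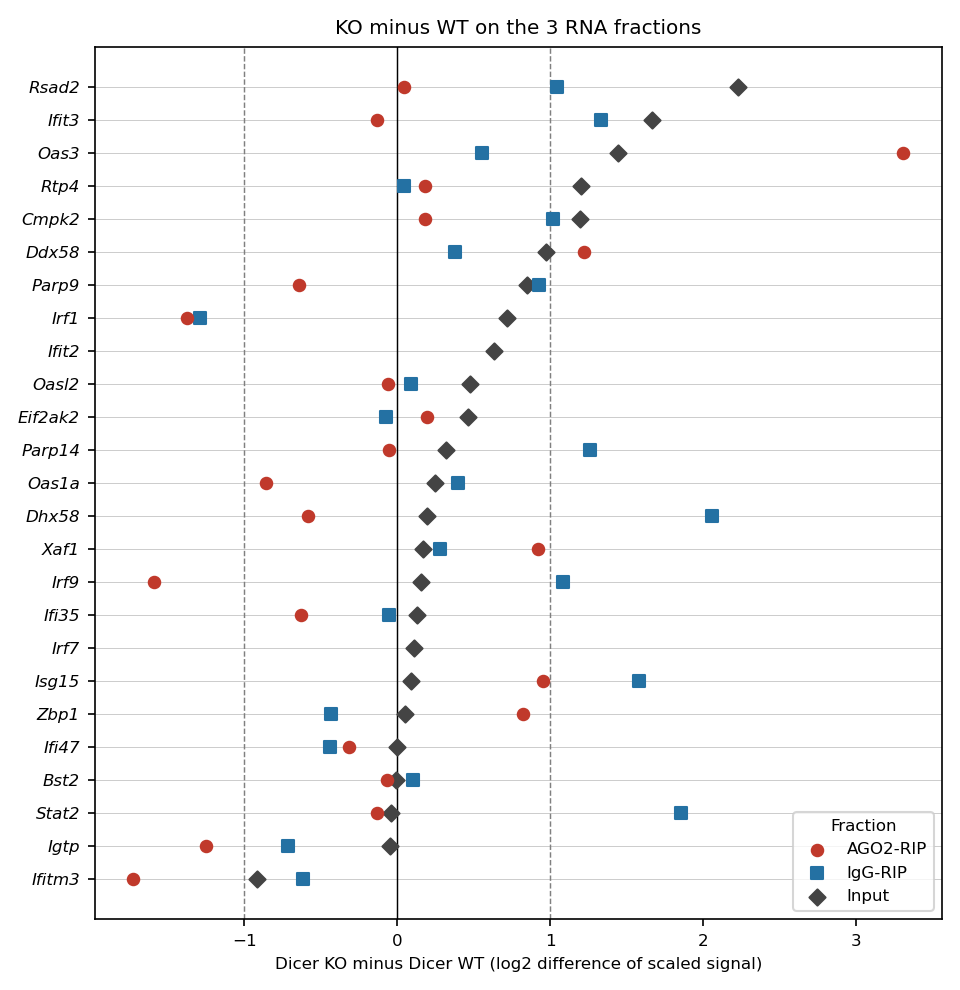
KO minus WT difference (log2) of the 25 members measured on both input arrays, sorted by the input value, for AGO2-RIP (circles), IgG-RIP (squares) and input (diamonds), with dashed lines at 2-fold. Rsad2, Ifit3, Oas3, Rtp4 and Cmpk2 have input values past 1, and the AGO2-RIP values of Rsad2 and Ifit3 lie near 0.

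Promoters of the 4 members with the largest input differences among those listed in RefSeq (GRCm38.p6) are shown to place the element through which the pathway acts, where they hold it. Each runs from 250 bases before to 50 bases after a start of the gene, on the gene's strand. Capitals mark GAAA followed after any 2 bases by GAAA, the core of the interferon-stimulated response element, on either strand. The windows are chr12:26456403-26456702 (minus strand) for Rsad2, chr19:34583279-34583578 (plus) for Ifit3, chr5:120777610-120777909 (minus) for Oas3 and chr12:26468965-26469264 (plus) for Cmpk2.
Rsad2: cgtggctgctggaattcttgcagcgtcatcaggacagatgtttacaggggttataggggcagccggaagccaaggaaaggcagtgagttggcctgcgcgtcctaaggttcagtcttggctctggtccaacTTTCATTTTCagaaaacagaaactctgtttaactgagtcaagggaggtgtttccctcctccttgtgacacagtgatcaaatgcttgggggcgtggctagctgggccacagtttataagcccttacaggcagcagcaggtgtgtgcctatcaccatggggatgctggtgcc
Ifit3: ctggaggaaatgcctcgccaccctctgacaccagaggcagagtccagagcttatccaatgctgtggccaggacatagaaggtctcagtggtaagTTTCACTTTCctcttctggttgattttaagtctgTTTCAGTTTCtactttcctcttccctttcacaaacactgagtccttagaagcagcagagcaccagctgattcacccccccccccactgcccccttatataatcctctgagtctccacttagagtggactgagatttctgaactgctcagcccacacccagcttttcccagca
Oas3: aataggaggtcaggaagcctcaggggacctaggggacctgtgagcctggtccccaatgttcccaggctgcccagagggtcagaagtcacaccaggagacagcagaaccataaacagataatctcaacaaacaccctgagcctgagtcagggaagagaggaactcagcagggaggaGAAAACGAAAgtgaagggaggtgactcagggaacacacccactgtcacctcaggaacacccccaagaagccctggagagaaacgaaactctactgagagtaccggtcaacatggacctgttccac
Cmpk2: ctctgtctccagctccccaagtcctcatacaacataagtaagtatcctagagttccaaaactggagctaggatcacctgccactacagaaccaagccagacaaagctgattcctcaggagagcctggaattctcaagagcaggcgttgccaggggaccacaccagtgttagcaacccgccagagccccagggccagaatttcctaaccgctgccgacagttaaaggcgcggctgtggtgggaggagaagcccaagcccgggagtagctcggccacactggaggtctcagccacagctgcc

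The Rsad2 window held 1 core, 120 bases before the start, the Ifit3 window 2, at 156 and 122 bases, and the Oas3 window 1, at 75 bases. The Cmpk2 window held none with these letters. Of the 27 members with a RefSeq promoter, 16 (59.3%) had the core and 7 had 2 or more copies, against 3.99% of 27025 genes and 3.44% of 32851 promoters of 300 bases. TTCNNNGAA, the gamma-activated site, was in the promoters of 8 of the 27 (29.6%), against 9.55% of genes and 8.30% of promoters. Both strands were searched, and a match describes letters, not binding. Among members measured in input, the KO minus WT median was 0.25 for the 11 with the core and 0.17 for the 9 without it. These medians lie closer together than the spot SD of a difference, 0.22. At least 2-fold higher were 3 with the core and 1 without it, against 1.02% of all measured genes. Measured members with no RefSeq promoter, such as Rtp4, are in neither group.

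The AGO2-RIP arrays were set against IgG-RIP of the same genotype, which carries the RNA that sticks to beads and IgG. In KO, 10 of 24 measured members were at least 2-fold higher in AGO2-RIP (10.5% of all measured genes) and 2 that much lower (9.92%). In WT, 11 of 24 were at least 2-fold higher (20.3% of all measured genes) and 2 lower (22.2%). With normexp 6 were higher in WT (2574 of 15216 genes) and 1 lower (1188 genes). The member median was 0.34 in KO and 0.66 in WT, against -0.19 and -0.24 over all measured genes. In both genotypes 9 of 24 members were at least 2-fold over IgG-RIP, against 6.32% of 14054 genes: Rsad2, Ifit3, Irf1, Irf9, Oasl2, Rtp4, Xaf1, Parp9 and Ifitm3. Oas3 reached 2-fold in KO and not in WT (4.01% of genes), and Stat2 and Isg15 in WT and not in KO (14.6% of genes). No member was at least 2-fold under IgG-RIP in both, against 2.63% of genes.

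**Figure D3:**
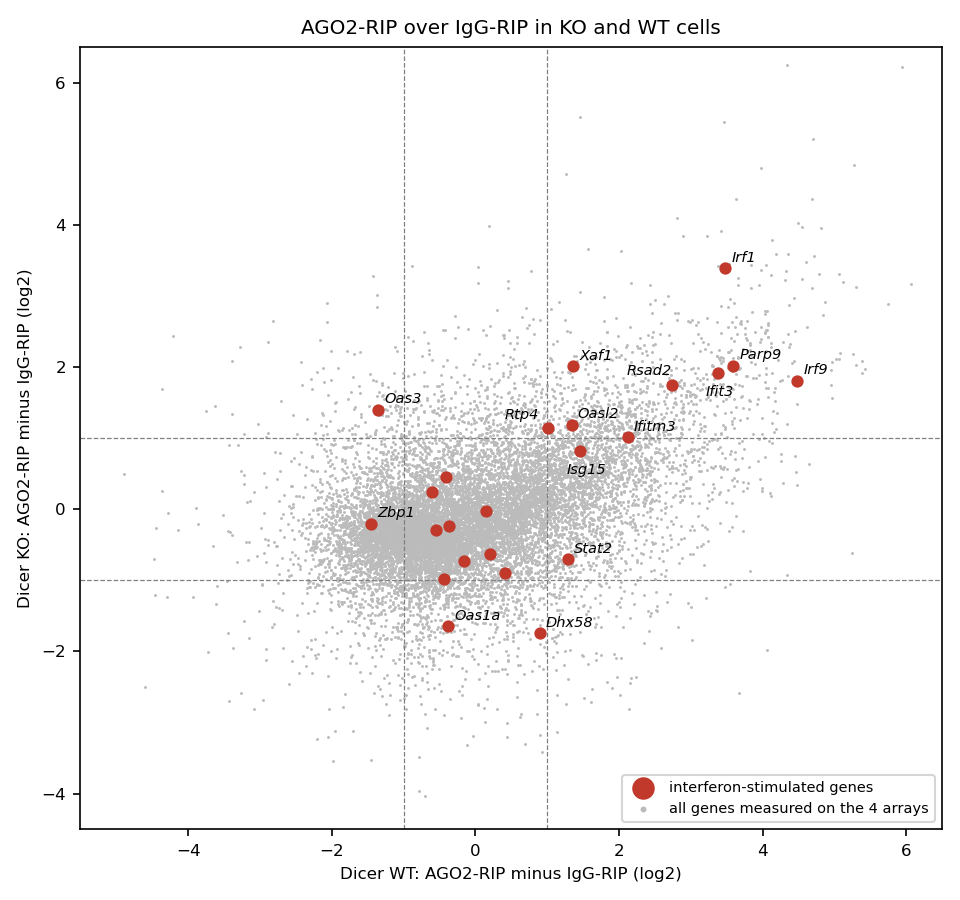
AGO2-RIP minus IgG-RIP (log2) in KO (vertical) against the same in WT (horizontal) for 24 members (red) and all 14054 genes measured on the 4 arrays (grey, 3 of them outside the axes), with dashed lines at 2-fold. The 9 members in the upper right corner were at least 2-fold over IgG-RIP in both genotypes, and Oas3 lies alone among the members in the upper left.

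Irf1 had the largest difference over IgG-RIP of the members in KO. It was at 4.14 in KO AGO2-RIP and 5.52 in WT AGO2-RIP. Its IgG-RIP levels were 0.74 in KO and 2.04 in WT, and the AGO2-RIP minus IgG-RIP difference was 3.39 in KO and 3.48 in WT. Irf1 also stood 2.20 over input in KO and 4.29 over input in WT. Its probe lies at chr11:53590746-53590805 on the plus strand (mm9, as the array files give it).

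Irf9 was at 2.35 in KO AGO2-RIP and 3.94 in WT AGO2-RIP, and at 0.54 in KO IgG-RIP and -0.54 in WT IgG-RIP. The difference over IgG-RIP was 1.81 in KO and 4.48 in WT, the largest of the members in WT. Its probe lies at chr14:56228806-56228865 on the plus strand (mm9).

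Stat2 differed in direction. It was at 0.70 in KO AGO2-RIP and 0.84 in WT AGO2-RIP, and at 1.40 in KO IgG-RIP and -0.45 in WT IgG-RIP, so that AGO2-RIP minus IgG-RIP was -0.70 in KO and 1.29 in WT. The AGO2-RIP levels were close and the IgG-RIP levels 1.86 apart. Irf7 was above background in AGO2-RIP of KO, at -1.77, and was not well above it in AGO2-RIP of WT or in IgG-RIP of either genotype.

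Parp9, a partner of the ubiquitin ligase DTX3L, was at 3.72 in KO AGO2-RIP and 4.36 in WT AGO2-RIP, at 1.70 in KO IgG-RIP and 0.77 in WT IgG-RIP, and at 2.07 in KO input and 1.22 in WT input. This gave 2.02 over IgG-RIP in KO and 3.59 in WT. A second probe of Parp9, measured on all 6 arrays, gave -0.19 in KO and -0.65 in WT, so the 2 probes disagree. Xaf1, a pro-apoptotic factor, was at 1.64 in KO AGO2-RIP and 0.72 in WT AGO2-RIP, at -0.36 in KO IgG-RIP and -0.64 in WT IgG-RIP, and at 0.91 in KO input and 0.74 in WT input. Its differences over IgG-RIP were 2.01 in KO and 1.37 in WT, and 1.86 in KO and 0.70 in WT by a second probe.

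For Rsad2 the difference over IgG-RIP was 1.75 in KO and 2.74 in WT, and for Ifit3 it was 1.91 in KO and 3.38 in WT. The WT value of Ifit3 rests on an IgG-RIP level of -1.97, near that array's lowest spot well above background. With normexp the Ifit3 values were 1.27 in KO and 2.0 in WT. Ifitm3 had 1.01 in KO and 2.12 in WT, Rtp4 1.15 in KO and 1.01 in WT, and Oasl2 1.19 in KO and 1.34 in WT, or 0.44 in KO and 0.61 in WT with normexp. Isg15, a ubiquitin-like protein joined to other proteins, was 0.82 over IgG-RIP in KO and 1.45 in WT.

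The lowest members differed between the genotypes. In KO they were Dhx58 at -1.75, Oas1a at -1.65 and Igtp at -0.98. Dhx58 was at -0.46 in KO AGO2-RIP and 0.12 in WT AGO2-RIP, at 1.28 in KO IgG-RIP and -0.77 in WT IgG-RIP, and at 0.52 in KO input and 0.33 in WT input. Its WT difference over IgG-RIP was 0.90, of the opposite sign. Oas1a was at 0.14 in KO AGO2-RIP and 1.00 in WT AGO2-RIP, at 1.79 in KO IgG-RIP and 1.39 in WT IgG-RIP, and at 1.88 in KO input and 1.63 in WT input. Its WT difference over IgG-RIP was -0.39, and a second probe gave -0.94 in KO and -2.08 in WT.

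In WT the lowest were Zbp1 at -1.46, Oas3 at -1.35 and Ddx58 at -0.60, followed by Eif2ak2 at -0.55. Zbp1 was at 3.24 in KO AGO2-RIP and 2.42 in WT AGO2-RIP, at 3.44 in KO IgG-RIP and 3.88 in WT IgG-RIP, and at 1.18 in KO input and 1.13 in WT input. Both kinds of precipitate were thus above input, and IgG-RIP was the higher of them in each genotype. A second Zbp1 probe was dim on all 6 arrays, so the Zbp1 values rest on 1 probe. Whether that probe also reads other RNA was not tested. Ddx58 was at 0.37 in KO AGO2-RIP and -0.85 in WT AGO2-RIP, at 0.13 in KO IgG-RIP and -0.25 in WT IgG-RIP, and at 0.15 in KO input and -0.83 in WT input. Its difference over IgG-RIP in KO was 0.24, and KO was the higher on each fraction. Eif2ak2 was at 1.64 in KO AGO2-RIP and 1.45 in WT AGO2-RIP, at 1.93 in KO IgG-RIP and 2.0 in WT IgG-RIP, and at 3.15 in KO input and 2.68 in WT input. Oas3 was 1.40 over IgG-RIP in KO and -1.35 in WT, or 0.96 in KO and -0.62 in WT with normexp.

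The other measured members stayed within 2-fold of IgG-RIP in both genotypes on the probe used. Bst2, Oas2, Ifi35, Ifi47, Parp14 and Cmpk2 ran from -0.90 to 0.45 in KO and from -0.41 to 0.42 in WT. A second Cmpk2 probe gave -2.16 in WT and was dim in KO IgG-RIP, so the 2 probes disagree in WT. On the probe used, Cxcl10 was dim in IgG-RIP of both genotypes and above background in AGO2-RIP, at -0.87 in KO and 0.23 in WT. That is at least 2.42-fold higher in KO and at least 4.80-fold higher in WT. A second Cxcl10 probe was above background in WT IgG-RIP only, at -1.99, so the 2 probes disagree in WT. In WT, Gbp2 had at least 3.37-fold less signal in AGO2-RIP than in IgG-RIP. On the probe used, Ifih1 was dim in both IgG-RIP arrays and at least 1.88-fold higher in AGO2-RIP of KO and 1.44-fold higher in WT. A second Ifih1 probe was at -2.13 in KO IgG-RIP and dim in KO AGO2-RIP, so the 2 probes disagree in KO.

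The limma fit across 18888 genes, in which the genotypes serve as the 2 replicates of a fraction, called 0 of 31 tested members and 0 genes in all between AGO2-RIP and IgG-RIP at an adjusted p under 0.05. At an unadjusted p under 0.05 it had 10 members and 3554 genes, and these 10 members were all higher in AGO2-RIP. Irf1 had a difference of 3.44 (95% interval 1.84 to 5.04, limma adjusted p = 0.101) and Parp9 one of 2.81 (adjusted p = 0.104). The 10 include Ifih1 and Cxcl10. On the probes used these were dim on both IgG-RIP arrays, so that only the bounds above hold for them. A second probe of each disagreed, for Ifih1 in KO and for Cxcl10 in WT. Restricted to the 12385 genes with signal on every array, limma called 6 of 23 members higher (4.34% of genes) and 0 lower (0.323%). They were Irf1 (adjusted p = 0.0154), Parp9 (0.0191), Ifit3 (0.0244), Irf9 (0.0261), Xaf1 (0.0453) and Rsad2 (0.0487), each higher in both genotypes on the probe used. For Parp9 the second probe went the other way.

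The difference over IgG-RIP was further set between genotypes, as the KO value minus the WT value. It was -1 or lower for 8 of 24 members (20.2% of 14054 genes) and 1 or higher for 2 (16.5%), with a median of -0.56 against -0.03 over those genes. The lowest were Irf9 at -2.68, Dhx58 at -2.64 and Stat2 at -1.99, and the highest were Oas3 at 2.75 and Zbp1 at 1.25. Oas1a at -1.26 and Parp9 at -1.57 were among the 8, but their second probes gave 1.14 and 0.46. Xaf1 had 0.64, and 1.16 by its second probe. Beside this, 8 of 25 members were at least 2-fold higher in KO IgG-RIP than in WT IgG-RIP (11% of all measured genes) and 1 lower (8.94%), Irf1 at -1.29. In AGO2-RIP 2 of 26 were at least 2-fold higher in KO (6.89%), Oas3 and Ddx58, and 5 lower (11%). With normexp the IgG-RIP counts were 2 higher and 0 lower (770 and 493 of 14892 genes). The AGO2-RIP counts were then 1 higher and 3 lower (327 and 983 of 16394 genes). The 8 higher in IgG-RIP were Dhx58 at 2.06, Stat2 at 1.86, Isg15 at 1.58, Ifit3 at 1.33, Parp14 at 1.26, Irf9 at 1.09, Rsad2 at 1.04 and Cmpk2 at 1.02. A second Cmpk2 probe was dim in KO IgG-RIP and at 1.47 in WT IgG-RIP, the other way. Lower by 2-fold in KO AGO2-RIP were Ifitm3 at -1.73, Irf9 at -1.59, Irf1 at -1.38, Igtp at -1.25 and Cxcl10 at -1.10. The comparisons share arrays, so they are not separate evidence.

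KO was above WT on all 3 fractions for 7 of 23 members (9.32% of 12385 genes): Rsad2, Isg15, Oas3, Ddx58, Rtp4, Xaf1 and Cmpk2. This rule sets no size: Rsad2 differed by 0.04 in AGO2-RIP and Rtp4 by 0.04 in IgG-RIP. A second Xaf1 probe was below WT on all 3, at -0.24 in AGO2-RIP, -1.41 in IgG-RIP and -0.19 in input. A second Cmpk2 probe had -1.15 for KO minus WT in AGO2-RIP. KO was below WT on all 3 for Ifitm3 and Igtp (14.3% of genes). No member was at least 2-fold above WT on all 3, which 0.0404% of genes were.

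**Figure D4:**
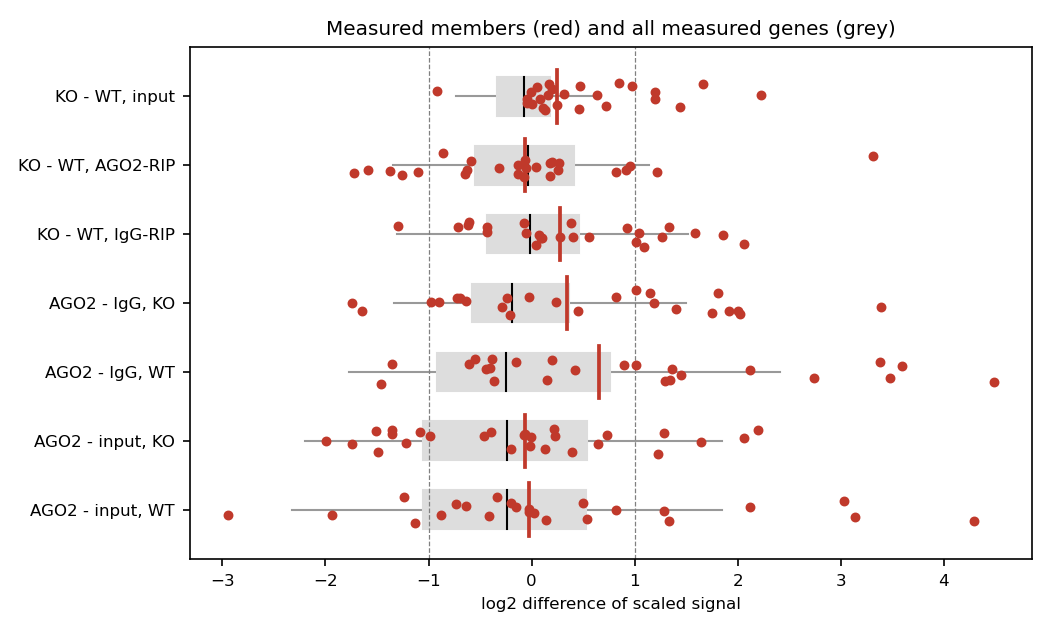
Log2 difference of each measured member (red points) in 7 comparisons (rows), with the member median as a red bar, over all measured genes as a grey box (middle 50%, black bar at the median) and a grey line (5th to 95th percentile), with dashed lines at 2-fold. The member median is 0.25 for KO minus WT in input, where 9 members lie above the 95th percentile of all genes and 1 below the 5th.

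Against input, AGO2-RIP was at least 2-fold higher for 5 of 27 members in KO (14.6% of all measured genes) and lower for 8 (26.4%). In WT it was at least 2-fold higher for 6 of 24 (14.8%) and lower for 4 (26.4%). Irf1, Irf9, Zbp1 and Parp9 were at least 2-fold higher in both genotypes, and Bst2, Eif2ak2 and Oas3 at least 2-fold lower in both. Rsad2 and Ifit3 differed between genotypes, at -0.07 and -0.46 in KO, against 2.11 and 1.34 in WT. Oas2 was 1.23 higher in AGO2-RIP than in input in KO and at least 3.73-fold higher in WT. Ifit2 was at least 4.98-fold lower in KO and 1.13 lower on the log2 scale in WT. Cxcl10 was 0.64 higher in KO and at least 4.51-fold higher in WT.

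By limma over both genotypes, Irf1 was higher in AGO2-RIP than in input by 3.24 (adjusted p = 0.0436; 4.47% of genes called higher) and Bst2 lower, at -1.97 (adjusted p = 0.0417; 5.77% called lower). Neither was called when an input or AGO2-RIP array was left out. Restricted to genes with signal on every array, limma called 4 members higher (9.1% of genes) and 3 lower (20.9%) in AGO2-RIP than in input. IgG-RIP differed from input for 8 members. Zbp1, on its only probe with signal, was higher by 2.51 (limma adjusted p = 0.0235, 14.3% of genes called higher). Lower were 7 (15.8% of genes called lower). Of these, Ifit3, Bst2, Oasl2, Rtp4 and Ifitm3 had differences from -2.39 to -1.40, with limma adjusted p from 0.0234 to 0.048. The others, Ifit2 and Ifih1, were dim on both IgG-RIP arrays on the probes used, and Ifih1 also in WT input. Their fitted differences are therefore no measured folds. Without either input array or without the WT IgG-RIP array none of the 8 was called. With the restricted set of genes 1 member was called higher (14.4% of genes) and 8 lower (29.6%).

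The rest of the pathway was looked at on the same arrays. Of 16 interferon genes on the array only Ifna12 and Ifnl3 were measured in input, at -0.15 and 0.03 for KO minus WT, and Ifnb1 (interferon beta) was dim on all 6 arrays. Of the receptor and kinase genes 8 were measured and 0 were past 2-fold between KO and WT input, from -0.15 to 0.62. Over all measured genes 1.02% were that much higher in KO input and 1.73% lower. Ifnlr1 was dim on all arrays, which says only that its probe gave no usable signal. Over IgG-RIP, 1 of the 8 was at least 2-fold higher and 1 lower in KO (10.5% and 9.92% of all measured genes), and 5 were higher in WT (20.3%) and 0 lower (22.2%). Ifngr2, a chain of the interferon gamma receptor, had 3.24 in KO and 4.55 in WT, and Tyk2, a receptor kinase, had -2.0 in KO and 0.43 in WT.

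Of 20 sensors and adaptors upstream of interferon, 19 were measured in input, from Irf5 at -0.60 to Tlr9 at 0.57. Past 2-fold were 0, against 1.02% of all measured genes higher and 1.73% lower. Over IgG-RIP, Tlr8 was at -2.51 in KO and 1.90 in WT. Of 14 negative regulators, 11 were measured in input, from Adar at -0.53 to Pias1 at 0.37. Again 0 were past 2-fold (1.02% and 1.73% of all measured genes). Over IgG-RIP 4 of 11 of them were at least 2-fold higher in KO, with Irf2 at 2.22, and 2 lower, Ptpn11 and Adar (10.5% and 9.92% of all measured genes). In WT 7 of 12 were higher, with Ptpn2 at 2.22 and Socs1 at 2.17, and 0 lower (20.3% and 22.2%).

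A further 60 interferon-stimulated genes outside the 36 were on the array, 48 of them measured in input. Of these 1 was at least 2-fold higher in KO (Ifit3b) and 1 lower (Helz2, at -1.12), near the 1.02% and 1.73% of all measured genes, with a median of 0.12 against -0.08. Over IgG-RIP 9 of 49 were at least 2-fold higher and 4 lower in KO (10.5% and 9.92% of all measured genes). In WT 12 of 44 were higher and 7 lower (20.3% and 22.2%). Ifit3b had 2.71 and Nmi 2.11 in KO, and Znfx1 3.06 and Lgals3bp 2.99 in WT.

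Markers of plasmacytoid dendritic cells, the main source of interferon alpha, were summed on the same scale. Their sum was 61.4 in KO input and 68.9 in WT input, with 3 of 5 above background on each. Siglech made up most of it, at 5.85 in KO input and 6.01 in WT input, while Ccr9 and Klk1 were dim on all 6 arrays. Summed markers of dendritic cells, neutrophils, B cells, T cells, NK cells, erythroid cells, fibroblasts and mast cells were between 0.157 and 2.78 on every array. The part of other cells in the values above was not tested.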

How the data were processed

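The deposited files are 1-colour Agilent scanner output, made with Feature Extraction 10.7.3.1 per the file headers and per the submitters' processing notes. Per the file headers, the processed signal the authors deposited is a linear intensity with the background subtracted, and arrays were not normalized to each other. The flag columns of the deposited files, read as other values, say whether a spot was well above background, saturated or an outlier.

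Per the labels' protocols, cDNA was pre-amplified, and 500 ng of it was digested with Alu I plus Rsa I before Cy3 labelling, so values are relative abundances at equal cDNA mass. Of the members' probes 15 of 36 (41.7%) hold such a site, against 34.9% of all 55627 probes.

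Each array's 75th percentile over non-control spots was subtracted from the log2 intensity. Spots of 1 probe were averaged without those flagged as outliers. Left out were 54 probes that had only outlier spots on at least 1 array. Where 1 array was dim, a bound was set by comparing the bright level with whichever was higher on the dim array, the probe's own level or the lowest spot well above background. Gene names come from the array and a RefSeq table, and probe positions are those of the array (mm9). Near-identical copies (Ifit3 and Ifit3b, the Oas1 and Gbp genes) can share signal.

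Fractions were compared over both genotypes with limma 3.58.1 in R 4.3.3 (lmFit, eBayes, terms for fraction and genotype, two-sided p-values with Benjamini-Hochberg adjustment) on the 18888 genes that 2 or more arrays had above background, with 2 residual and 3.31 prior degrees of freedom. The labels do not say whether samples are separate cultures or animals, so p-values measure only the spread between these samples. A genotype effect was not tested. Alternatives were normexp background correction, median centring, quantile normalization, the median of a gene's probes, other filters, no genotype term and leaving out each array. The limma procedure was tested on simulated data. Other steps used Python 3.11.15, numpy 2.4.6 and pandas 2.3.3.

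The members, the lists, the tests and the alternatives were chosen with earlier results of these data known. All 6 values are given for the 4 highest and 3 lowest members of KO minus WT input and of AGO2-RIP minus IgG-RIP in each genotype and for Stat2, Irf1, Irf7, Irf9 and, outside that rule, Eif2ak2, and of other lists at most the 2 highest and 2 lowest genes of a comparison. Of these lists, 1 gene is not reported here.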

Additional observations from a re-analysis of the deposited data

Results flagged for a closer look

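Members whose AGO2-RIP difference had opposite signs in KO and WT, each larger than 2 spot SDs, are given here. With 1 array per group the difference between genotypes was not tested, and 8 of 24 members and 30.8% of 14054 genes were above IgG-RIP in 1 genotype and below it in the other. Oas3 was 1.40 over IgG-RIP in KO and -1.35 in WT, a KO minus WT value of 2.75. For Dhx58 the values were -1.75 in KO and 0.90 in WT, a KO minus WT value of -2.64. Stat2 had -0.70 in KO and 1.29 in WT, a KO minus WT value of -1.99. Over input, Ifit3 had -0.46 in KO and 1.34 in WT, a KO minus WT value of -1.80. For Dhx58 and Stat2 the IgG-RIP levels were 2.06 and 1.86 higher in KO than in WT, while the AGO2-RIP levels differed by -0.59 and -0.13. For Oas3 the AGO2-RIP levels differed by 3.31 and the IgG-RIP levels by 0.56.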

How the results depend on the processing

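Of the counts and medians, 155 recomputed values stayed within 1.5 times the main count or within the spread, and 67 moved. The labels give no replicate numbers, and the limma fits compare fractions within genotype through their genotype term. Counts below are of members at least 2-fold higher or lower, with the count over all genes in brackets. Medians are the members' minus that of all genes. With normexp, AGO2-RIP over IgG-RIP had a median of 0.28 in KO. In WT it had 6 higher (2574 of 15216) and 1 lower (1188), with a median of 0.55. Its KO minus WT value had 5 lower (2011 of 14054), with a median of -0.18. AGO2-RIP against input had 5 lower in KO (2771 of 15286) and 2 in WT (2417 of 14420). KO against WT had 1 higher and 3 lower in AGO2-RIP (327 and 983 of 16394). In IgG-RIP it had 2 higher and 0 lower (770 and 493 of 14892). With no filter on dim probes, all bracketed counts are of 34755 genes. KO against WT input then had 9 higher and 1 lower (1391 and 2169), with a median of 0.55. AGO2-RIP over IgG-RIP had 5 lower in KO (4278) and 4 in WT (7352), and the KO minus WT value of it 4 higher (6978). AGO2-RIP against input in WT then had 7 lower (6091), with a median of 0.58. KO against WT had 5 higher in AGO2-RIP (3786) and 3 lower in IgG-RIP (4391). With quantile normalization KO against WT AGO2-RIP had 5 higher (1391 of 16394), and AGO2-RIP against input in KO 5 lower (3029 of 15286). Median centring gave 3 higher for AGO2-RIP against input in KO (1203 of 15286). For the KO minus WT value it gave 1 higher (1371 of 14054). With the median of probes, KO against WT had 1 higher in AGO2-RIP (1349 of 16534) and 2 lower in IgG-RIP (1579 of 15176). AGO2-RIP against input in KO had a median of -0.15, and Cmpk2 turned to -1.74 for KO minus WT in IgG-RIP, against 1.02.

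For limma, AGO2-RIP over IgG-RIP had 1 member called higher with normexp and 6 with genes above background on all 6 arrays, and 0 with every array left out in turn. AGO2-RIP against input had 3 higher and 2 lower with normexp, 0 and 2 with median centring, 0 and 0 with quantile normalization and with no filter, 4 and 3 with genes above background on all 6 arrays, 3 and 3 without the genotype term, and 0 to 5 higher and 0 to 3 lower with each array left out. IgG-RIP against input had 0 higher with the median of probes, 12 lower with median centring, 4 lower with quantile normalization, and 0 to 2 higher and 0 to 5 lower with each array left out. The calls over all 18888 genes moved as well. AGO2-RIP over IgG-RIP had 248 genes called higher with normexp, against 0 in the main fit. IgG-RIP against input had 5002 called lower with median centring, against 2993. AGO2-RIP against input had 0 genes called with quantile normalization. Why these moved was not tested.

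With median centring the median of all genes was 0.06 for AGO2-RIP over IgG-RIP in WT, against -0.24 in the main values. For AGO2-RIP against input it was -0.74 in KO and -0.52 in WT (-0.09 and -0.08 with quantile normalization), against -0.24 in both. It was -0.23 for KO against WT in AGO2-RIP and 0.11 in IgG-RIP with median centring, against -0.03 and -0.01. For the KO minus WT value of AGO2-RIP over IgG-RIP it was -0.35 with median centring and 0.10 with quantile normalization, against -0.03. The share of genes past 2-fold that were higher was 51.3% for AGO2-RIP over IgG-RIP in KO and 67.5% with normexp, and in WT it was 47.8%, 68.4% with normexp and 66.4% with median centring. Over input it was 35.6% in KO and 36.0% in WT, with 16.0% and 23.5% under median centring and 46.8% and 46.1% under quantile normalization. For KO against WT AGO2-RIP it was 38.5%, 24.96% with normexp and 21.2% with median centring, and for the KO minus WT value of AGO2-RIP over IgG-RIP 44.9%, and 25.5% with median centring. Single-member differences moved past the spread most often with normexp (54 of 79), then median centring (36), quantile normalization (19) and the median of probes (17, with 1 turned). Signal over background limits the dim members, of which 4 have no value on any array.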
